A study of Homo sapiens with 12 samples.

Results

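The mitochondrial chromosome carried 37 of the 58051 genes in the count table. They were taken by chromosome, as every gene placed on MT, and all have symbols beginning MT-. By class they were 13 mRNA genes, 2 rRNA genes and 22 tRNA genes, and they are described here by class in 12 libraries of HCT116, an established human colon carcinoma cell line. Cells received a control siRNA (siControl) or an siRNA against PFDN2 (siPFDN2) or PFDN5 (siPFDN5), carried in with Oligofectamine. Their targets are genes of prefoldin subunits; prefoldin is a chaperone that hands newly made actin and tubulin to the cytosolic chaperonin. From 24 h after the siRNA all cultures were kept without serum for 48 h, and RNA was taken either at the end of that starvation (before serum) or 90 min after serum was given back (after serum). Each of the 6 groups had 2 libraries. All libraries came from total RNA treated with DNase, depleted of 18S rRNA and reverse transcribed from random primers, so transcripts without a poly(A) tail were kept. The labels do not say whether the 2 libraries of a group came from separate cultures, so p-values measure only the spread between these libraries.

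Human mitochondrial DNA is transcribed from both strands into long precursors that cover almost the whole circle. The heavy-strand transcript carries both rRNAs, most of the tRNAs and every mRNA except MT-ND6, which lies with the remaining tRNAs on the light-strand transcript. The tRNAs sit between the longer genes and are cut out at their ends, which frees the mRNAs and rRNAs beside them. The mRNAs encode subunits of respiratory complexes I, III, IV and V, and the rRNAs and tRNAs serve the mitochondrion's own ribosome. Polymerase, maturation enzymes and ribosomal proteins are all encoded in the nucleus.

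The tRNA genes MT-TA, MT-TN, MT-TC, MT-TY and MT-TP are shown because they are encoded by the light-strand transcript and, in the comparison with the lowest mRNA levels, were not lower with the mRNAs. MT-TA, MT-TN, MT-TC and MT-TY (alanine, asparagine, cysteine, tyrosine) form a run between MT-ND2 and MT-CO1, and MT-TP (proline) lies next to the non-coding control region. Each gene is given 5′ to 3′ in the sense of the tRNA, from the GENCODE 29 transcripts of GRCh38, with the anticodon in capitals. The 3′ CCA of a mature tRNA is added after transcription and is not in the gene.
MT-TA (MT, minus strand, 5587 to 5655): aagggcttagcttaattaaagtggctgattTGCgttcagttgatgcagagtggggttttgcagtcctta
MT-TN (MT, minus strand, 5657 to 5729): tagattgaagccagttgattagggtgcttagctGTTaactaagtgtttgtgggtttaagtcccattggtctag
MT-TC (MT, minus strand, 5761 to 5826): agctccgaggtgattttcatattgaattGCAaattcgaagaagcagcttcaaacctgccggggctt
MT-TY (MT, minus strand, 5826 to 5891): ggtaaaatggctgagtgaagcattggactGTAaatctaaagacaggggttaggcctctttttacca
MT-TP (MT, minus strand, 15956 to 16023): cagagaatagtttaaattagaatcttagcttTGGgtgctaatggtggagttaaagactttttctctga
MT-TC and MT-TY share 1 base. These genes are 66 to 73 bases long, and 32 of the 36 neighbouring pairs of mitochondrial genes overlap or lie within 5 bases of each other. A fragment over 2 genes was counted for each of them and strand was not used, so a tRNA's count includes fragments of the precursor and of the opposite transcript over the same bases. Reads that map to several places were not counted.

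The libraries held 59784425 to 136504590 gene-body counts, with a median of 88299300. Levels are given as CPM, a gene's counts scaled to a library total of 1e+06 with edgeR's TMM factors. For the cell type markers below the library total was used without these factors. PFDN2 in siPFDN2 libraries was at 7.55 and 8.49 CPM before serum and 8.73 and 9.47 after, against 11.5 and 11.2, then 19.5 and 16.3, in siControl. PFDN5 before serum was at 41.0 and 44.2 CPM in siPFDN5 against 76.8 and 68.9 in siControl. After serum, libraries labelled siPFDN5 had 67.5 and 68.6 CPM of it and siControl 67.9 and 74.0: the targeted mRNA was not lowered there, and every direction drawn below from the libraries labelled siPFDN5 after serum carries that limit. In no comparison of an siRNA with siControl did PFDN2 or PFDN5 pass the edgeR test used below. PFDN2 in libraries labelled siPFDN5 was at 21.8 and 21.1 CPM before serum and 23.1 and 28.7 after, above both siControl libraries at each time. The siPFDN2 library of replicate 2 before serum stood apart. Across genes its levels followed GC content, with a rank correlation of 0.688 against -0.280 to 0.133 in the others, and the replicates of its group differed with an SD of 0.681 on the log2 scale against 0.116 to 0.301 in the other groups. Of the colon epithelial markers, KRT8 (667 to 1224 CPM), KRT18 (396 to 657), EPCAM (167 to 226) and CDH1 (59.8 to 102) were highest. VIL1 (8.68 to 17.4 CPM), CDX2 (4.89 to 15.5) and KRT20 (1.47 to 3.08) were low, and CDX1, LGR5 and ASCL2 were at or near 0. Of 9 markers of other cell types 7 stayed at or below 0.502 CPM, with VWF at 0.760 to 1.71 CPM and COL1A1 at 4.14 to 17.4 CPM.

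Mitochondrial genes took 3.83% to 8.78% of the gene-body counts of a library, with a median of 6.45%, and the 2 rRNAs made up 93.1% to 97.3% of that. The rRNA share was 8.40% and 5.52% in siControl before serum, 6.31% and 7.75% in siControl after, 7.06% and 5.93% in siPFDN2 before, 8.36% and 4.63% in siPFDN2 after, 5.73% and 6.27% in siPFDN5 before, and 3.72% and 3.93% in the libraries labelled siPFDN5 after serum. The last pair lay below each of the other 10 libraries. Counting error was small against this spread: the widest 95% Wilson interval of a share was ± 0.00674 percentage points.

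The 13 mRNAs took 0.354% and 0.161% of counts in siControl before serum and 0.239% and 0.326% after. In siPFDN2 the mRNA share was 0.253% and 0.393% before and 0.316% and 0.15% after. With siPFDN5 it was 0.214% and 0.243% before, and 0.0813% and 0.112% in the libraries so labelled after serum, again the lowest pair of the series. In siControl before serum and in siPFDN2 after serum the replicates thus lay further apart than the means of those groups. The tRNA share did not separate the libraries in this way: it was 0.0237% and 0.0227% in those labelled siPFDN5 after serum, within the 0.0201% to 0.0448% of the series.

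**Figure D1:**
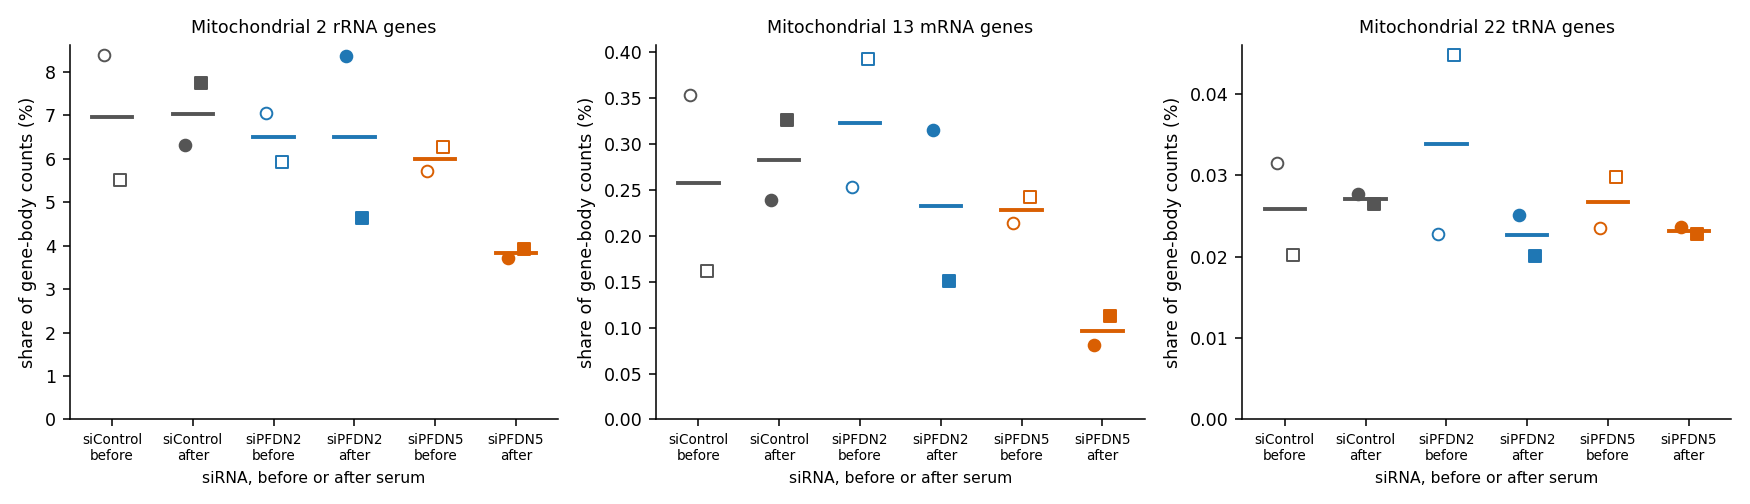
Share of gene-body counts (%) taken by the mitochondrial rRNA, mRNA and tRNA genes in each library, by siRNA and time; circles are replicate 1, squares replicate 2, open symbols before serum, filled symbols after, and the line is the mean of 2. For rRNA and mRNA the pair labelled siPFDN5 after serum lies lowest (3.72% and 3.93%; 0.0813% and 0.112%), and for tRNA it lies inside the range of the other libraries.

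Over all classes the share was 7.24% ± 2.18 (SD, n = 2) in siControl before serum and 7.34% ± 1.08 (SD, n = 2) after it. It was 6.85% ± 0.686 and 6.75% ± 2.75 in siPFDN2, and 6.25% ± 0.408 and 3.95% ± 0.169 in siPFDN5 (SD, n = 2 each, before and after). On the log2 scale, after minus before serum averaged over the siRNAs was -0.23 (exact permutation test within siRNA, two-sided, p = 0.25 over 216 relabellings), and it ran from -0.38 to -0.09 with 1 library left out (exact permutation p of 0.0648 to 0.639). By siRNA it was 0.04 in siControl, -0.08 in siPFDN2 and -0.66 in siPFDN5. Against siControl over both times, the difference was -0.53 for siPFDN5 (p = 0.167) and -0.11 for siPFDN2 (p = 0.722), both by exact permutation over 36 relabellings within time, a design whose smallest p is 0.0556. None of 9 such tests of shares and ratios passed after adjustment (lowest adjusted p = 0.357, Benjamini-Hochberg). A lower share in bulk RNA cannot tell fewer mitochondria, less RNA in each, and more of other RNA apart, nor fewer cells of a kind from less RNA per cell.

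The mRNA counts were divided by respiratory complex. The 3 subunit mRNAs of complex IV (cytochrome c oxidase: MT-CO1, MT-CO2, MT-CO3) gave 44.7% to 61.6% of mRNA counts, with a median of 57.1%. The 7 mRNAs of complex I (NADH dehydrogenase) gave 24.5% to 38.4%, MT-CYB of complex III gave 5.65% to 8.35%, and MT-ATP6 with MT-ATP8 of complex V (ATP synthase) gave 6.74% to 9.26%. The lowest complex IV and the highest complex I value both belonged to the siPFDN2 library of replicate 2 before serum, which stood apart. MT-ND5 of complex I gave 15.2% of mRNA counts there and 12.6% in the siControl library of replicate 2 after serum. In these libraries its gene-body count was well above the transcript estimate, as described below, which raises complex I and lowers the other percentages.

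Per kilobase of gene, MT-CO3 had the highest mRNA level, with a mean of 657 CPM per kb (292 to 1122 over the libraries), followed by MT-CO2 (393), MT-CO1 (338), MT-ND4L (254) and MT-ATP6 (221). MT-ATP8 (174), MT-ND4 (171), MT-CYB (137), MT-ND3 (125) and MT-ND5 (101) came next, and MT-ND6 (69.4), MT-ND1 (66.8) and MT-ND2 (52.7) were lowest. That order is of gene-body counts and depends on the counting. The deposited transcript estimates were a median of 1.53 times these counts for MT-CO1 and 1.11 times for MT-CO2. For MT-ND2 they were 1.49 times and for MT-ATP8 0.314 times, and an order by these estimates was not taken. Ranges over the libraries overlapped for each pair of neighbours in the gene-body order. The rRNAs did not overlap in this way: MT-RNR2, the large-subunit rRNA, was at 22063 to 50700 CPM per kb and MT-RNR1, the small-subunit rRNA, at 6771 to 19976. Among the tRNA genes MT-TY and MT-TC had the highest mean counts (5450 and 4144) and means of 924 and 702 CPM per kb. MT-TD (aspartic acid) and MT-TQ (glutamine) had the lowest, at 23.1 and 59.7 counts and 3.85 and 9.27 CPM per kb.

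Whether PFDN5 siRNA went with other mitochondrial RNA levels after serum was asked by comparing the libraries labelled siPFDN5 with siControl at that time. All 13 mRNAs were lower in both of these libraries than in both siControl libraries, both rRNAs likewise, and 14 of the 22 tRNAs; 2 tRNAs were higher in both. None of the 37 passed the test, edgeR's quasi-likelihood test over all 27915 genes tested with Benjamini-Hochberg adjustment at 0.05, in which 0.00358% of genes passed. At an unadjusted p under 0.05 were 13 of 13 mRNAs, 1 of 2 rRNAs and 7 of 22 tRNAs, against 21.6% of all genes. Of all genes tested, 32.8% were below siControl in both libraries, 30.6% were above it in both and 54% had a log2 fold change under 0.

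The complex IV mRNAs show the sizes. MT-CO1, the catalytic subunit, was at 576 and 676 CPM in siControl, against 213 and 289 in the libraries labelled siPFDN5 (log2 fold change -1.32, SE 0.37, adjusted p = 0.0948, edgeR). MT-CO2, which takes up electrons from cytochrome c, was at 233 and 387 against 120 and 141 CPM (-1.25, SE 0.41). MT-CO3 was at 489 and 660 against 229 and 292 CPM (-1.14, SE 0.39). In none of these did the groups overlap.

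For complex V, MT-ATP6, part of the proton channel, was at 152 and 207 CPM in siControl and 49.5 and 70.0 in the libraries labelled siPFDN5 (log2 fold change -1.59, SE 0.45). MT-ATP8, which shares 46 bases with MT-ATP6, was at 36.7 and 42.7 against 12.9 and 15.7 CPM (-1.47, SE 0.46). MT-CYB, cytochrome b of complex III, was at 139 and 212 against 52.5 and 74.2 CPM (-1.47, SE 0.48). These 3 had fold changes near the mRNA median of -1.37, where the median of all genes tested was -0.04.

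Among the complex I mRNAs, MT-ND1 was at 63.3 and 90.1 CPM in siControl and 27.2 and 32.3 in the libraries labelled siPFDN5 (log2 fold change -1.37). MT-ND2 was at 53.4 and 81.2 against 21.7 and 26 CPM (-1.50). MT-ND4 was at 219 and 332 against 72.4 and 103 CPM (-1.65), and MT-ND4L, which overlaps it by 7 bases, at 79.2 and 103 against 32.4 and 39.9 CPM (-1.34). MT-ND3 and MT-ND6 were the least lowered mRNAs: MT-ND3 was at 59.3 and 55.1 against 30.2 and 27.8 CPM (-0.98, SE 0.26), and MT-ND6, the light-strand mRNA, at 36.1 and 43.6 against 19.1 and 20.9 CPM (-0.99, SE 0.38). MT-ND5 had the largest difference, at 145 and 415 against 45.2 and 60.7 CPM (-2.40, SE 0.69), but the value of 415 is 1 of 2 gene-body values that the transcript estimates do not show, as described below. Adjusted p over the 13 mRNAs ran from 0.0895 to 0.164.

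MT-RNR1 was at 11814 and 14552 CPM in siControl after serum and at 6459 and 7332 in the libraries labelled siPFDN5 (log2 fold change -0.93, SE 0.32, adjusted p = 0.138, edgeR). MT-RNR2 was at 48468 and 63987 against 35945 and 34396 CPM (-0.68, SE 0.32, adjusted p = 0.241). Both groups lay apart, and both differences were smaller than that of any mRNA.

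The tRNAs are given by transcript; the difference between the 2 sets was not tested, and their values cross over. The 14 of the heavy-strand transcript had a median log2 fold change of -0.77, and 12 of them were below siControl in both libraries. MT-TK (lysine), at 1.01 and 0.958 CPM in siControl and 0.239 and 0.374 in the libraries labelled siPFDN5, had the lowest value (-1.67, SE 0.38) and the lowest adjusted p of all 37 members (0.0732). It had few counts, 17 to 129 in a library. MT-TW (tryptophan) was the exception, at 0.727 and 1.04 against 1.52 and 1.17 CPM (0.59, SE 0.30, adjusted p = 0.284).

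The 8 tRNAs of the light-strand transcript had a median of 0.04, and 2 were below siControl in both libraries. MT-TA was at 25 and 24 CPM in siControl and 29 and 22.1 in the libraries labelled siPFDN5 (log2 fold change 0.06). MT-TN was at 28.3 and 26 against 35.9 and 26.9 CPM (0.21), MT-TC at 48.4 and 45.0 against 51.2 and 47.1 CPM (0.07), and MT-TY at 63.9 and 59.3 against 65.5 and 59.3 CPM (0.02). The differences of these 4 neighbours were thus smaller than their SEs of 0.34 to 0.40, and the signs turn with the scaling, to -0.11 for MT-TA, -0.09 for MT-TC and -0.14 for MT-TY when counts were scaled by library size alone. That scaling moved the median of all genes in this comparison to -0.20. MT-TP lay above siControl in both libraries, at 42.5 and 39.5 against 27.2 and 30.1 CPM (0.52, SE 0.18, adjusted p = 0.136). The 2 light-strand tRNAs below siControl in both libraries were MT-TS1 (serine), at 1.57 and 1.59 against 3.58 and 3.97 CPM (-1.25, SE 0.47), and MT-TE (glutamic acid), at 11.5 and 13.9 against 18.3 and 23.6 CPM (-0.72, SE 0.37). MT-TQ had a log2 fold change of -0.29, with groups that overlap.

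**Figure D2:**
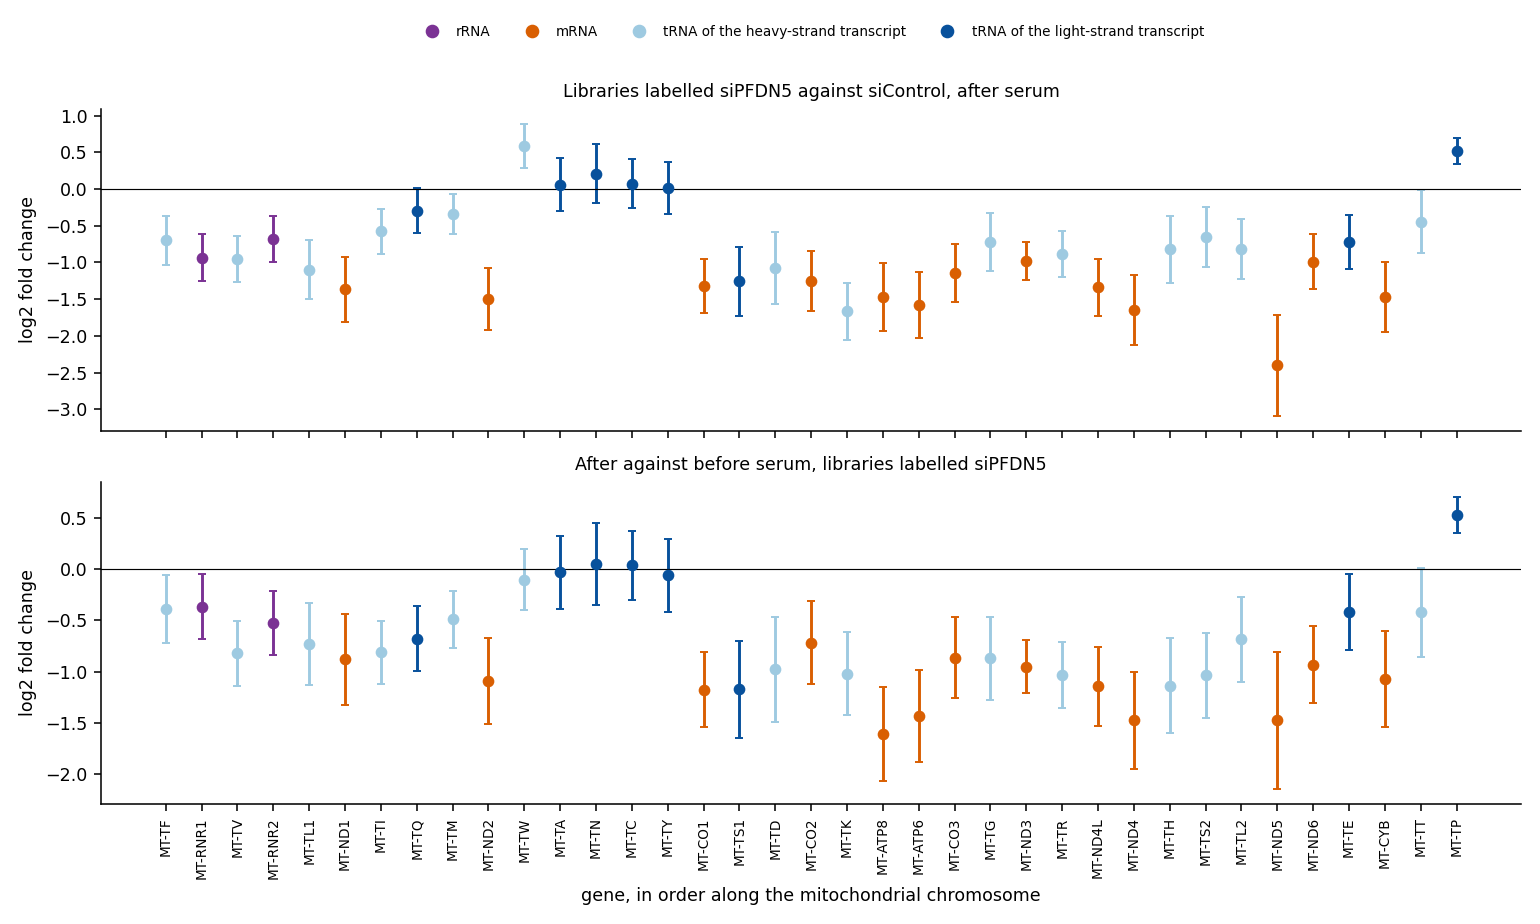
Log2 fold change (points) with its standard error (bars) for the 37 mitochondrial genes in chromosome order, for the libraries labelled siPFDN5 against siControl after serum (top) and after against before serum in siPFDN5 (bottom), from the edgeR fit over all 12 libraries. The 13 mRNAs lie between -2.40 and -0.98 in the top panel, while MT-TA, MT-TN, MT-TC and MT-TY lie near 0 and MT-TP at 0.52.

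How many members passed here varied with the fit. The fit over 12 libraries shares its estimate of the spread with groups not compared here. Among them is siPFDN2 before serum, whose replicates differed with an SD of 0.681 against 0.116 to 0.301 in the other groups. Without replicate 2 of that group the mRNA median was -1.36. Calls with a library left out are given in the closing section. When the spread was estimated from only the 4 libraries compared, a choice made after the data were seen, 16 members passed as lower (9 mRNAs, MT-RNR1 and 6 tRNAs) and MT-TP passed as higher, against 7.81% of all genes. That fit tested 25440 genes. On all 12 libraries DESeq2 called 9 members, all lower, beside 6.85% of all genes, and edgeR without the filter on low counts called 21, beside 5.42%. The mRNA median was -1.08 without replicate 2 of siControl after serum and -1.58 without its replicate 1.

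Serum's effect within siPFDN5, after against before, had a log2 fold change under 0 in 34 of 37 members, against 52% of all genes, and it shares the libraries labelled siPFDN5 after serum with the comparison above. Of the members 2 fell, both mRNAs, where 12.2% of all genes passed and 6.48% passed as lower. MT-ATP8 went from 38.5 and 48.9 CPM to 12.9 and 15.7 (log2 fold change -1.61, SE 0.46, adjusted p = 0.0451, edgeR). MT-ND3 went from 52.1 and 60.0 CPM to 30.2 and 27.8 (-0.95, SE 0.26, adjusted p = 0.0398). The other 11 mRNAs had log2 fold changes of -1.48 to -0.72 and none passed; all 13 were lower in both libraries after serum, as were both rRNAs, against 38.9% of all genes. The call for MT-ATP8 was lost in 13 of 22 alternative fits and that for MT-ND3 in 11 of 22. Both were lost in every fit that left out a library of siPFDN5 or of siControl after serum. The MT-ND3 call was also lost without a library of siControl before serum or of siPFDN2 after serum. That for MT-ATP8 was also lost without a library of siPFDN2 before serum. Libraries of siControl and siPFDN2 are not in this comparison, but they enter the estimate of the spread. In the fit on only the 4 libraries compared, 24 members passed as lower and MT-TP as higher, beside 54.5% of all genes.

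MT-ND3 encodes a small complex I subunit and was the only member to pass in the serum responses of siControl and of siPFDN2. Its siControl libraries read 24.5 and 24.5 CPM before serum, then 59.3 and 55.1 after. It rose by 1.22 on the log2 scale (SE 0.26, adjusted p = 0.0299, edgeR), where 2.87% of all genes passed and 2.47% passed as higher. In siPFDN2 it went from 37.1 and 19.1 to 73.7 and 54.9 CPM and rose by 1.20 (SE 0.26, adjusted p = 0.0340), where 3.26% of genes passed and 2.06% passed as higher. No library overlapped between times in either.

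With siPFDN5 the order turned. Before serum MT-ND3 was already at 52.1 and 60.0 CPM, above all 4 libraries of the other siRNAs at that time and near their levels after serum. Against siControl that was a log2 fold change of 1.19 (SE 0.26), which did not pass in the fit over 12 libraries (adjusted p = 0.176, edgeR) but passed with DESeq2 (1.17% of all genes passed) and on only the 4 libraries compared (1.18, adjusted p = 0.0024; 19.5% of all genes passed). After serum it was at 30.2 and 27.8 CPM in the libraries so labelled. The difference of the serum responses, siPFDN5 minus siControl, was -2.17 (SE 0.37), with an unadjusted p of 0.000101 and an adjusted p of 0.0960, in a comparison where 0% of all genes passed. Adjusted p ran from 1.72e-11 to 0.344 over 21 alternative fits, 7 of which passed it. For siPFDN2 minus siControl the same difference was -0.03 (SE 0.36).

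The rise in siControl kept its size, 1.15 to 1.29, over 22 alternative fits but passed in 13 of them. Each fit that left out a siControl library lost it. So did each fit that left out an siPFDN5 library, though these are not in the comparison, as the spread is estimated over all libraries of a fit. In siPFDN2 the log2 fold change ran from 0.79 to 1.76 and passed in 10 of 22. On only the 4 siPFDN2 libraries the adjusted p was 0.511. Transcript estimates gave 1.29 in siControl (adjusted p = 0.0592) and 1.25 in siPFDN2 (adjusted p = 0.0575).

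With serum, MT-ND3 had the highest log2 fold change of all mitochondrial mRNAs in siControl and siPFDN2, and in siPFDN5 it fell together with them. It was 0.748% and 1.60% of mitochondrial mRNA counts in siControl before serum and 2.60% and 1.67% after, and 1.53% and 0.538% before and 2.10% and 3.52% after in siPFDN2. With siPFDN5 it was 2.56% and 2.40% before serum, and 3.26% and 2.33% in the libraries labelled siPFDN5 after serum. All 4 libraries of siControl and siPFDN2 before serum were thus at or below 1.60%, and the other 8 were at or above 1.67%. This split was seen in the values and was not tested. In the libraries labelled siPFDN5 after serum MT-ND3 was low in CPM together with the other mRNAs. Its percentage of them overlapped that of siControl after serum and of siPFDN5 before.

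**Figure D3:**
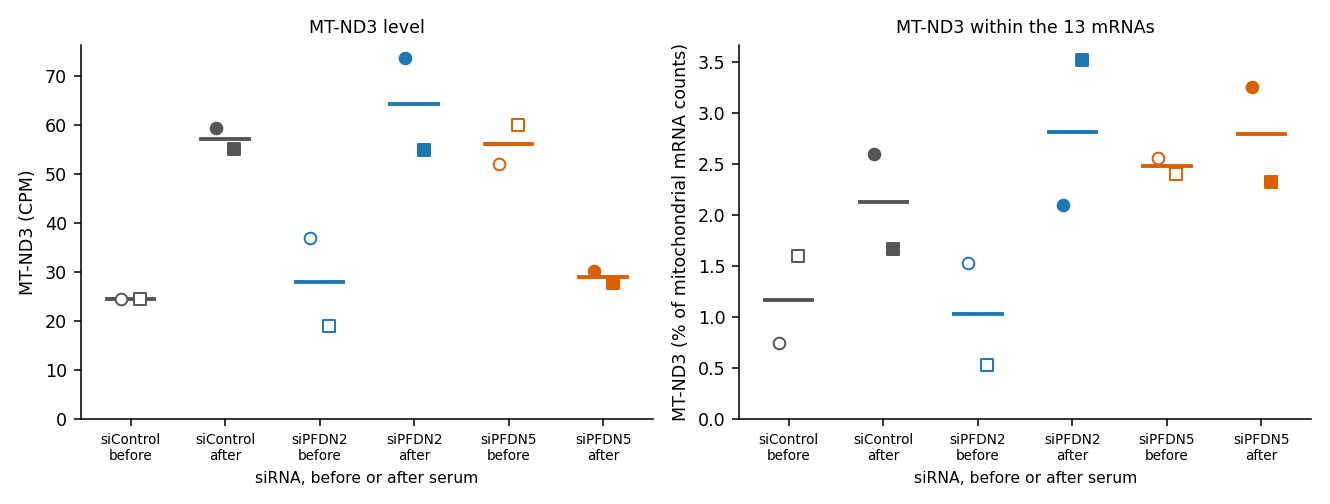
MT-ND3 in each library as CPM (left) and as a percentage of the counts of the 13 mitochondrial mRNAs (right); symbols as in the plot of shares, lines are means of 2. In CPM it is high after serum in siControl and siPFDN2 and before serum in siPFDN5, and as a percentage of mRNA it is lowest in the 4 libraries of siControl and siPFDN2 before serum.

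Averaged over the 3 siRNAs, 2 members rose after serum and none fell, where 7.6% of all genes passed as higher and 14.9% in either direction. MT-ND3 rose by 0.49 (SE 0.15, adjusted p = 0.0495, edgeR), an average of responses that ran in opposite directions. That call was lost in 14 of 21 alternative fits (0.35 to 0.68, adjusted p up to 0.138). MT-TP rose by 0.44 (SE 0.10, adjusted p = 0.0173). MT-TP was at 29.2 and 22.4 CPM before serum and 27.2 and 30.1 after in siControl, where the groups overlap. It went from 26.4 and 21.3 to 38.4 and 35.1 CPM in siPFDN2 and from 25.8 and 31.0 to 42.5 and 39.5 in siPFDN5, with no overlap in either. The MT-TP call was lost in 8 of 20 alternative fits, among them library-size scaling (0.29, adjusted p = 0.0530) and removal of the GC trend (0.28, adjusted p = 0.0963). Of the remaining members, 35 had an averaged log2 fold change under 0, against 52.8% of all genes, and none of these passed, with a median over the mRNAs of -0.39. By siRNA, 10 of 37 members were under 0 in siControl (48.4% of all genes; member median 0.17), 24 in siPFDN2 (51.5%; -0.16) and 34 in siPFDN5 (52%; -0.86).

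Before serum siPFDN5 differed from siControl in no member by the test, where 0.00716% of all genes passed. MT-ND3 was the only member at an unadjusted p under 0.05, against 12.3% of all genes, and DESeq2 called that gene alone. The mRNA median was 0.13 and the 2 rRNAs were at -0.30 and -0.10. The sign of the median over all members, 0.14 with 24 above 0, changed with the library left out: it was 0.51 without replicate 1 of siControl before serum (34 above 0) and -0.26 without replicate 2 (11 above 0). It was -0.07 without replicate 2 of siPFDN5 before serum. The difference of the serum responses passed for no member in edgeR as set out above, where 0% of all genes passed, and for MT-ND3 and MT-ND4L in DESeq2, where 6.2% did. With the GC trend removed edgeR called MT-ND3, beside 8.69% of all genes. Without the filter on low counts it called MT-ND3, other mRNAs and MT-TR, beside 4.98%.

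PFDN2 siRNA showed no member past the test at either time, with edgeR as set out above or DESeq2. At an unadjusted p under 0.05 were 0 of 37 at either time, where 11.3% of all genes reached it before serum and 6.26% after. In that edgeR fit 0% of the 27915 genes passed the adjusted threshold at either time, and in DESeq2 0.0967% before and 0.00716% after serum. Without the filter on low counts edgeR called MT-ATP8, MT-CYB, MT-ND2, MT-ND4, MT-ND5, MT-RNR1, MT-TN and MT-TY before serum, beside 2.23% of all genes. After serum it called MT-ND5 alone, beside 0.528%. Before serum 7 of 37 members had a log2 fold change under 0, against 50.6% of all genes, with an mRNA median of 0.47. No member's libraries separated, while 15.4% of all genes were below and 15.8% above siControl in both libraries; 1 of the 2 siPFDN2 libraries is the one that stood apart. With only that library left in the group 10 tRNAs passed, beside 41.8% of all genes, and with only the other none did, beside 0.0241%. The median over the members was 0.39 in the fit over 12 libraries, but 0.05 without the library that stood apart, with 20 of 37 above 0, and 0.04 without replicate 2 of siControl before serum. It was 0.81 without replicate 1 of that siControl group. After serum 19 members were above 0 and 18 below, against 56.8% of all genes below, with an mRNA median of -0.04. The serum response of siPFDN2 differed from that of siControl in no member by edgeR as set out above, where 0% of all genes passed. At an unadjusted p under 0.05 was 1 of 37 members, MT-ND5, against 6.6% of all genes. Without the filter edgeR called MT-ND5, MT-RNR1, MT-TN and MT-TY, beside 1.37% of all genes.

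Ratios between classes removed the total and left the difference in composition. There were 15.1 to 45.8 rRNA counts for each mRNA count, with a median of 26.6. The ratio was 23.7 and 34.2 in siControl before serum and 26.4 and 23.8 after, 27.9 and 15.1 then 26.5 and 30.8 in siPFDN2, 26.8 and 25.8 in siPFDN5 before, and 45.8 and 35.0 in the libraries labelled siPFDN5 after serum, the highest pair. Averaged over the siRNAs it was 0.30 higher after serum on the log2 scale (exact permutation, p = 0.185). Against siControl over both times it was 0.28 higher in siPFDN5 (p = 0.222) and -0.14 in siPFDN2 (p = 0.778), also by exact permutation.

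Light-strand tRNA counts per 100 mRNA counts set the libraries labelled siPFDN5 after serum further apart, at 25.7 and 17.7. The other 10 libraries ran from 5.91 to 10.9: 6.43 and 9.79 in siControl before serum and 9.44 and 6.44 after, 6.57 and 9.78 then 5.91 and 10.9 in siPFDN2, and 8.91 and 10.3 in siPFDN5 before. The light-strand tRNAs made up 88.2% and 87.5% of tRNA counts in the former and 72.0% to 85.7% elsewhere. Heavy-strand tRNA counts per 100 mRNA counts were 3.43 and 2.54 there, and 1.64 to 2.76 in the others, so that the second value overlapped them. The light-strand ratio draws on the same libraries and genes as the comparison with siControl above, so it is no separate support. Its counts came mostly from MT-TY, MT-TC, MT-TP, MT-TN and MT-TA (means of 5450, 4144, 2657, 2494 and 2241). MT-TE, MT-TS1 and MT-TQ had 1645, 278 and 59.7, and MT-TE and MT-TS1 were below siControl in both libraries.

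**Figure D4:**
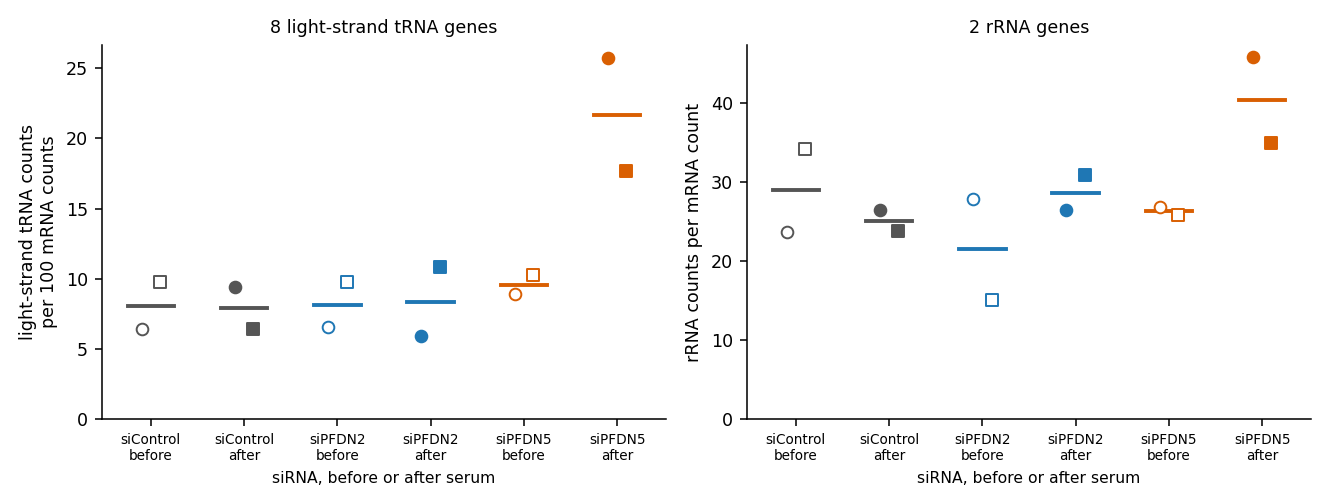
Light-strand tRNA counts per 100 mitochondrial mRNA counts (left) and rRNA counts per mRNA count (right) in each library; symbols as in the plot of shares, lines are means of 2. The libraries labelled siPFDN5 after serum are highest in both, at 25.7 and 17.7 and at 45.8 and 35.0.

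MT-ND6, as the light-strand mRNA, was set against the 12 heavy-strand mRNAs. It gave 1.33 to 2.11 counts per 100 heavy-strand mRNA counts. After minus before serum was 0.19 on the log2 scale, averaged over the siRNAs and positive in 3 of 3 (0.02 in siControl, 0.35 in siPFDN2 and 0.20 in siPFDN5; exact permutation, p = 0.0926). With transcript estimates it was 0.24 (exact permutation, p = 0.0278). Against siControl over both times it was 0.32 in siPFDN5 (p = 0.111) and 0.15 in siPFDN2 (p = 0.278), by exact permutation. Overlap of MT-ND6 with the unprocessed heavy-strand transcript cannot be told apart from MT-ND6 itself without strand.

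MT-ND5 depended on how it was counted. Its gene-body count was 1.01 to 1.02 times the transcript estimate in 10 libraries, but 2.05 times in the siPFDN2 library of replicate 2 before serum (60730 against 29695) and 2.33 times in the siControl library of replicate 2 after serum (55929 against 23991). The excess was 31035 and 31938 counts, at most 268 in the other libraries. The other 12 mRNAs summed gave ratios of 0.874 to 0.908 in all 12 libraries. With transcript estimates the log2 fold change of MT-ND5 in the libraries labelled siPFDN5 against siControl after serum was -1.68 (SE 0.48) rather than -2.40, in siPFDN2 against siControl before serum 0.53 rather than 1.32, and for serum in siControl 0.31 rather than 1.06. None of these passed in either.

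**Figure D5:**
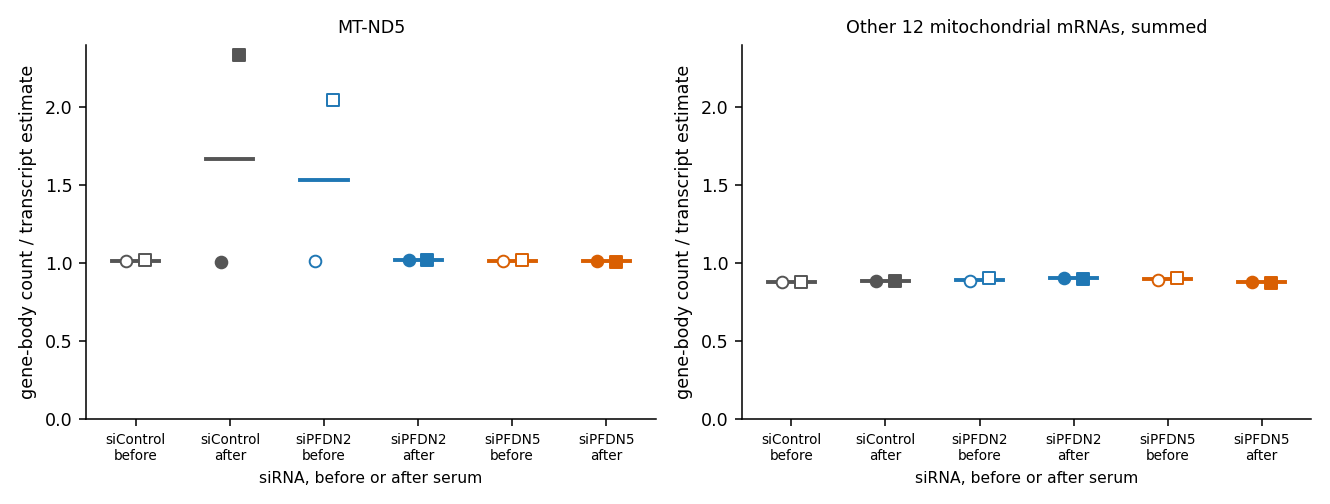
Gene-body count divided by transcript estimate in each library for MT-ND5 (left) and for the other 12 mitochondrial mRNAs summed (right), on the same axis; symbols as in the plot of shares. For MT-ND5 2 libraries lie at 2.05 and 2.33 and the rest at 1.01 to 1.02, while the other mRNAs stay at 0.874 to 0.908.

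Another ratio set the library that stood apart from the rest: it had 55.4 MT-RNR1 counts per 100 MT-RNR2 counts, against 16.1 to 24.4 in the other 11. The transcript estimates held the 13 mRNAs and none of the rRNA or tRNA genes. Their medians per library were 1.49 times the gene-body count for MT-ND2 and 1.53 times for MT-CO1, and 0.314 times for MT-ATP8, which overlaps MT-ATP6.

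Copies of mitochondrial genes in nuclear chromosomes could share reads with the members. The table held 406 such genes, of which 6 had a mean of at least 100 counts. MTRNR2L1 on chromosome 17 (22523111 to 22524663), whose sequence is 89.0% identical to MT-RNR2, had a mean of 149036 counts, or 3.38% of the MT-RNR2 mean. MTATP6P1 on chromosome 1 (633696 to 634376), 98.5% identical to MT-ATP6, had 1801 counts, or 13.3% of MT-ATP6. MTRNR2L12 on chromosome 3 (96617188 to 96618236), 95% identical to MT-RNR2, had 812. MTRNR2L1 stayed at 3.18 to 4.26 counts per 100 MT-RNR2 counts in all libraries. In the transcript estimates, where MT-RNR2 was not among the transcripts, the MTRNR2L genes took 2.84% to 6.27% of a library.

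Nuclear genes of mitochondrial RNA synthesis and turnover were taken as a list of 33, all of which were tested, with 7 transcriptional regulators. In none of the 4 comparisons with siControl did a gene of either list pass (edgeR), where 0% and 0.00716% of all genes passed before serum (siPFDN2, siPFDN5) and 0% and 0.00358% after. Averaged over the siRNAs 1 of 33 rose after serum and 2 fell, beside 14.9% of all genes: TRMT10C, a subunit of the enzyme that cuts tRNAs at their 5′ ends, rose by 0.61 (adjusted p = 0.0242), POLG2, the accessory subunit of the mitochondrial DNA polymerase, fell by 0.51 (adjusted p = 0.0020), and MTERF2 fell by 0.49 (adjusted p = 0.0221). The list's median was 0.01. TRMT10C was at 21.4 to 45.4 CPM before serum and 42.9 to 64.4 after, so that the 2 ranges overlap. POLG2 was at 13.3 to 15.4 CPM before and 9.72 to 11 after, with no overlap.

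In siPFDN5, HSD17B10, another subunit of the same tRNA-cutting enzyme, rose from 30.9 and 32.7 to 48.9 and 50.6 CPM after serum (log2 fold change 0.64, adjusted p = 0.0253, edgeR), the only gene of the 33 to pass there, beside 12.2% of all genes (5.72% higher and 6.48% lower). PPARGC1B, a coactivator of genes for mitochondrial proteins, fell from 24.3 and 25.9 to 12.9 and 15.5 CPM (-0.82, adjusted p = 0.0256). It also fell by 0.44 averaged over the siRNAs (adjusted p = 0.0241), and was the only regulator to pass in either, beside 12.2% and 14.9% of all genes. Genes at the centre of mitochondrial transcription did not pass: in the libraries labelled siPFDN5 after serum the polymerase POLRMT was at 38.8 and 44.8 CPM against 37.6 and 42.9 in siControl, and TFAM, which binds and bends the promoters, at 83.6 and 74.2 against 60.4 and 71.1. LRPPRC, which with SLIRP stabilises mitochondrial mRNAs, was at 398 and 374 against 323 and 358 CPM, and SLIRP at 127 and 129 against 92.5 and 100.2.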

How the data were processed

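Total RNA from 12 HCT116 libraries in 6 groups was measured by RNA-seq. Per the file headers, the authors counted fragments per gene with featureCounts 1.5.2 on the Ensembl 87 annotation of GRCh38, over gene bodies and over exons, requiring both ends mapped, counting a fragment once for each gene it touched, with strand not used and multi-mapping reads not counted. For every mitochondrial gene the deposited gene-body and exon counts were equal. The deposited transcript files hold estimated counts, although they are named as another unit; kallisto 0.43, HISAT2 (given as 0.12.2) and the build GRCh38.p7 are named in the submitters' processing notes, with no roles. Among the columns of the count tables, 6 match no sample and were not used.

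Gene-body counts were tested with edgeR 4.0.16 (quasi-likelihood, TMM, filter on low counts, 6 group means over all 12 libraries; Benjamini-Hochberg at 0.05 over 27915 genes) in R 4.3.3. CPM use TMM-scaled totals, except for the cell type markers, which use the library total alone. Estimated counts were rounded to whole numbers. Shares and ratios were compared on log2 by exact permutation within siRNA or time, two-sided. The edgeR and permutation tests were run on simulated data. The simulated counts had the same spread for every gene and library, where the replicate SD here ran from 0.116 to 0.681 between groups. That run therefore cannot show how calls behave with the unequal spread of these libraries. Alternatives were upper-quartile and library-size scaling, no filter, DESeq2 1.42.0, exon counts, transcript estimates, a replicate block, removal of the GC trend, each library left out, nuclear protein-coding counts as denominator and, added after seeing the data, only the 4 libraries compared. Intervals are Wilson at 95% and cover counting error only. Coordinates and sequences come from GENCODE 29, in which the mitochondrial genes have the coordinates of the count table.

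All mRNA and rRNA genes are named; of the tRNAs those that passed, the 2 highest and 2 lowest by mean count, and others chosen after their values were seen (MT-TA, MT-TN, MT-TK, MT-TW, MT-TS1, MT-TE, MT-TL2). Of the nuclear lists, the genes that passed are named (at most 3 each way), and POLRMT, TFAM, LRPPRC and SLIRP after their values were seen. The members and lists were chosen with earlier results of these data known.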

Additional observations from a re-analysis of the deposited data

Results flagged for a closer look

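MT-ND3 moved in opposite directions with serum: both libraries after serum lay above both before it in siControl and in siPFDN2, and below them in siPFDN5. Of all genes tested, 23.3% lay above in this way in siControl, 26.2% in siPFDN2, and 38.9% lay below in siPFDN5. The share of genes that did so in opposite directions was not counted. The difference of the serum responses, siPFDN5 minus siControl, was -2.17 on the log2 scale (SE 0.37, unadjusted p = 0.000101, adjusted p = 0.0960 in edgeR), and siPFDN5 minus siPFDN2 it was -2.15, which was not tested. The libraries labelled siPFDN5 after serum did not have lowered PFDN5.

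MT-TL2, the tRNA for leucine that reads CUN codons, was at 1.26 and 0.908 CPM before and 1.57 and 1.28 after serum in siControl, and at 1.32 and 1.27 then 0.744 and 0.865 in siPFDN5, so that the groups separated in opposite directions. The difference was -1.08 (SE 0.57, adjusted p = 0.314, edgeR). In siControl the groups were set apart only by 1.26 against 1.28 CPM, and the gene had 53 to 301 counts in a library. Of all genes, 23.3% lay above in both libraries after serum in siControl and 38.9% below in siPFDN5.

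MT-TD did so between siPFDN2, at 0.212 and 0.257 then 0.381 and 0.305 CPM, and siPFDN5, at 0.318 and 0.207 then 0.0842 and 0.175 CPM. The difference of -1.51 was not tested, and the gene had 6 to 42 counts in a library. Of all genes, 26.2% lay above in both libraries after serum in siPFDN2 and 38.9% below in siPFDN5.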

How the results depend on the processing

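The number of members called moved most with the fit, and so did the share of all genes called, given after it in the same order. Without the filter on low counts it was 8 and 2 for siPFDN2 and siPFDN5 against siControl before serum (2.23% and 2.13% of all genes), 1 and 21 after (0.528% and 5.42%), 2, 9 and 22 for serum in siControl, siPFDN2 and siPFDN5 (3.36%, 10.9% and 11%), 15 for serum averaged (13.9%), and 4 and 12 for the differences of response, siPFDN2 and siPFDN5 minus siControl (1.37% and 4.98%). DESeq2 gave 1 for siPFDN5 before serum and 9 after (1.17% and 6.85%), 2 and 7 for serum in siPFDN2 and siPFDN5 (11.2% and 16.1%), and 2 for the siPFDN5 difference (6.2%). Removing the GC trend gave 1 and 2 for siPFDN5 against siControl before and after (0.652% and 13.5%), 1 for serum averaged (28.4%) and 1 for the siPFDN5 difference (8.69%), and the same counts with the replicate block (0.276%, 9.46%, 26% and 0.00358%). Transcript estimates gave 0 for each of the 3 serum responses and their average (1.95%, 2.35%, 4.36% and 9.35%), exon counts 1 for serum in siPFDN5 and 1 for the average (4.22% and 11%), library-size scaling 7 and 0 for these (11.6% and 20.5%), and upper-quartile scaling 3 and 1 (12.1% and 15.6%). On only the 4 libraries compared, 1 and 17 were called for siPFDN5 against siControl before and after serum (19.5% and 7.81%), 0 for serum in siPFDN2 (0.143%) and 25 in siPFDN5 (54.5%). The cause was not tested. Leaving out 1 library at a time gave 0 to 10 and 0 to 1 for siPFDN2 and siPFDN5 before serum (up to 41.8% and 6.96% of all genes), 0 to 0 and 0 to 4 after (up to 0.593% and 23.9%), 0 to 1, 0 to 7 and 0 to 8 for serum in siControl, siPFDN2 and siPFDN5 (up to 9.95%, 48.6% and 36.3%), 0 to 5 for the average (up to 47.3%), and 0 to 6 and 0 to 2 for the differences (up to 37.7% and 21.8%).

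Replicate numbers did not pair the libraries: same-numbered deviations correlated at -0.32 to 0.59 over 15 pairs of groups (median -0.05), with 4 above 0.1. The replicate block left 1 member called for serum in siPFDN5 (MT-ND3) against 2 without it and changed no other count of calls.

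Among shares and ratios, leaving out 1 library gave -0.33 to 0.10 for the share and -0.36 to 0.0795 for the rRNA to mRNA ratio of siPFDN2 against siControl, so that both changed sign. It gave 0.15 to 0.45 for the rRNA to mRNA ratio after serum (exact permutation p down to 0.0463) and 0.14 to 0.24 for the MT-ND6 ratio after serum (p down to 0.0370); transcript estimates gave 0.24 for the latter. Transcript estimates hold no rRNA, so no rRNA ratio was had from them, and their share covers mRNA only. The 13 mRNAs of the libraries labelled siPFDN5 after serum kept a negative fold change in each of 22 alternative fits, with medians of -1.58 to -1.08. With 2 libraries a group, differences as large as those between replicates could not be told from them at this number.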
